A study of Mus musculus with 6 samples.

Results

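To examine the enzyme complexes of oxidative phosphorylation in the liver of hSRY-ON pups, all members of the nuclear-encoded respiratory chain and ATP synthase gene families were followed on the liver arrays. Members were taken by symbol alone: names that begin with *Ndufa*, *Ndufb*, *Ndufc*, *Ndufs* or *Ndufv* and a number, the names *Sdha* to *Sdhd*, and names that begin with *Uqcr*, *Cox4* to *Cox8* or *Atp5*, with *Cox7a1* and *Cox7a2* left out. This gave 73 of the 18138 gene symbols on the array and 91 of its 25697 probes.

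RNA came from the livers of 6 male mice of the FVB/N background (labelled FVB) at postnatal day 6, 3 of them hSRY-ON and 3 hSRY-OFF. All the mice of the responder line carry a *Signalox-hSRY* cassette, present as a single copy at the *H11* locus. In hSRY-OFF mice, as the study's methods define the name, the cassette had not been recombined, so that its *CAG* promoter, which is active in most cell types, drives the red fluorescent protein *DsRed2*. In hSRY-ON mice Cre protein from the oocyte of a *Ddx4-Cre* mother had recombined the cassette in the fertilized egg, so that the same promoter drives human *SRY*, the sex-determining gene of the Y chromosome, with *EGFP*. The hSRY-ON mice chosen for the arrays did not themselves carry *Ddx4-Cre*. The design therefore differs between the groups in the loss of *DsRed2* as well as in the gain of human *SRY* and *EGFP*, and these cannot be told apart. Other passages of the study speak of control littermates without the cassette, so that whether the control arrays carried *DsRed2* is not settled. The transgene itself was not analysed here. The study describes stomachs without milk in hSRY-ON pups. The labels do not give the feeding state of the pups on the arrays, and an effect of feeding cannot be told apart from one of the transgene.

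The respiratory chain sits in the inner mitochondrial membrane. Complex I takes electrons from NADH and complex II takes them from succinate, complex III passes them from ubiquinol to cytochrome c, and complex IV hands them to oxygen. Complexes I, III and IV pump protons as they work, and the ATP synthase lets the protons return through its membrane part, Fo, to drive ATP formation in its catalytic part, F1. The newborn liver takes most of its energy from this route. Several subunits of complex IV exist as pairs of genes, of which one is used in most tissues and the other mainly in muscle, lung or testis.

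Most members were measured well on these arrays. A probe counted as detected where its deposited detection p-value was under 0.01, and 69 of the 91 probes were detected on all 6 arrays. Probes detected on at least 3 arrays were tested, which kept 74 probes of 62 genes. Of the other probes, 14 were detected on no array and 3 on 1 or 2 arrays. The undetected probes left *Ndufs1*, *Ndufb2* and *Ndufb4* of complex I, *Sdhd* of complex II, *Uqcrq* of complex III, *Cox7b2*, *Cox8b* and *Cox8c* of complex IV and *Atp5k* of the ATP synthase without a detected probe. *Uqcrfs1* was detected on 1 array and *Cox4i2* on 2. No probe on the array carried the symbol *Sdha*, *Cox8a*, *Atp5g1* or *Ndufa4l2*, and none matched the symbols searched for the subunits encoded by mitochondrial DNA. All values below are log2 intensities after background removal and quantile normalization, and a difference is the hSRY-ON mean minus the hSRY-OFF mean on that scale. Probes differ in how brightly they report the same amount of RNA, so levels are compared between groups and not between probes.

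The 6 arrays were alike in overall signal. They detected 40.2% to 41.9% of all probes and 71 to 75 of the 91 member probes each, and their median intensities before normalization lay between 147 and 165. Correlations between arrays across the tested probes ranged from 0.987 to 0.992 within hSRY-OFF, from 0.965 to 0.982 within hSRY-ON and from 0.912 to 0.939 between the groups. Among hepatocyte markers 7 of 8 genes were detected on at least 1 array, with *Tat* undetected.

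Promoters of these genes are known for binding sites of a small set of factors, so the DNA around the start sites is shown for members past the threshold. RefSeq promoters on assembly GRCm38.p6, each 300 bases from 250 before to 50 after a start site, could be matched for 59 of the 73 genes (65 promoters) and for 10 of the 14 genes past the threshold. Searched on both strands were NRF1 (GCGCN followed at once by TGCGC), the ETS motif of GABPA (CCGGAAG), YY1 (AAGATGGC) and the motif of the estrogen-related receptors (AAGGTCA). None of these motifs holds another, and the last was added after the value of *Esrra* had been seen. The assembly is of strain C57BL/6J, not FVB/N. Shown are 3 promoters with YY1, 1 each with the ETS motif and with NRF1, and that of the member with the largest rise, which holds none of these motifs. Capitals mark the motif matches, on either strand. They are *Ndufs7* at chr10:80249199-80249498 (plus strand), *Ndufa3* at chr7:3617123-3617422 (plus strand), *Ndufc1* at chr3:51408906-51409205 (minus strand), *Sdhb* at chr4:140961021-140961320 (plus strand), *Atp5c1* at chr2:10080383-10080682 (minus strand) and *Cox6b2* at chr7:4753045-4753344 (minus strand).
Ndufs7: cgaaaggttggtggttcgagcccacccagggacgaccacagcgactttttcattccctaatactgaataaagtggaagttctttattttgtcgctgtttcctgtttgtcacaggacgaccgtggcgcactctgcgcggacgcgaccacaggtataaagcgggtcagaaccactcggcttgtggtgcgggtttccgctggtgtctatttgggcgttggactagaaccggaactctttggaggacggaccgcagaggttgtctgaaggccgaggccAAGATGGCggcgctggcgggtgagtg
Ndufa3: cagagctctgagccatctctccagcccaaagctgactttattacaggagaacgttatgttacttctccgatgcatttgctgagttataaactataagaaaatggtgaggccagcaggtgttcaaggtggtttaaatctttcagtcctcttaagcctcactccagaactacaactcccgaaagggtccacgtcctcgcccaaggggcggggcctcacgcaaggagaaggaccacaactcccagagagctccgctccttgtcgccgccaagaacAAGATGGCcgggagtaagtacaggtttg
Ndufc1: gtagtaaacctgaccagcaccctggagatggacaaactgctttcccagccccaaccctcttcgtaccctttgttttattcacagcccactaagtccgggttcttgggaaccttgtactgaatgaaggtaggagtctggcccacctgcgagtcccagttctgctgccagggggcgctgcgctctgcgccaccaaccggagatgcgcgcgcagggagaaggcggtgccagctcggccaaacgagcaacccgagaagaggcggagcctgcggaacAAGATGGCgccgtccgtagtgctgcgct
Sdhb: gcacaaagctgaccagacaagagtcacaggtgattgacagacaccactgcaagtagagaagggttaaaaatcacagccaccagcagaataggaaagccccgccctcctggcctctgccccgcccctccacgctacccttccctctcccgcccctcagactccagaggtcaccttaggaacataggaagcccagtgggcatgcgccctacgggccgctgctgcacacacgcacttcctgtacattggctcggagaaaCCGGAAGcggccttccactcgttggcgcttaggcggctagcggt
Atp5c1: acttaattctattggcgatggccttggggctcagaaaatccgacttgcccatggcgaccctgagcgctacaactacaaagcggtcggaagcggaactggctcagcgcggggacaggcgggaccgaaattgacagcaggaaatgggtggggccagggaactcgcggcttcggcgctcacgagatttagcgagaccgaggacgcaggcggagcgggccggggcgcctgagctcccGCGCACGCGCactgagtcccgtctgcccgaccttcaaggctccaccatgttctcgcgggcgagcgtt
Cox6b2: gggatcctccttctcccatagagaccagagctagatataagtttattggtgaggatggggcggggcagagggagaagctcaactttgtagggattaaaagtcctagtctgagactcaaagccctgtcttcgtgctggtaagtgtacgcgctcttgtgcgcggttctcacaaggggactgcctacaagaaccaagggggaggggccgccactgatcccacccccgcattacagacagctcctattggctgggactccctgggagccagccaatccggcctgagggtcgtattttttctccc

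In the 3 YY1 promoters the match lies downstream of the start site, and in the *Atp5c1* promoter it lies upstream. YY1 was found in 18.5% of the 65 member promoters, against 2.75% of all 32851 promoters in the table and 4.41% of the promoters of tested genes. NRF1 was found in 23.1% of member promoters, against 4.60% of all and 9.43% of those of tested genes. The ETS motif stood in 23.1% of member promoters, 8.86% of all and 17.0% of those of tested genes. The estrogen-related receptor motif stood in 10.8%, 4.72% and 3.43%. The member shares include promoters of members that were not tested. Among the 58 promoters of tested members, the set to hold against tested genes, YY1 stood in 20.7% and NRF1 in 20.7%. In the same 58 the ETS motif stood in 22.4% and the estrogen-related receptor motif in 5.17%. Among the 11 promoters of members past the threshold, 3 held YY1, 2 the ETS motif, 1 NRF1 and 1 the estrogen-related receptor motif. A match says only that these letters are present.

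Across the family, levels in hSRY-ON livers were shifted slightly upwards, and 1 member fell past the threshold. Of the 74 tested probes 62 had a positive difference (83.8%), against 51.4% of all 10734 tested probes, and the median difference was 0.23, or 1.18-fold, against 0.02 for all tested probes. By the test, 13 probes rose (17.6%), a share near the 15.8% of all tested probes that rose. One of the 13, *Cox6a2*, entered the test only through the hSRY-ON arrays, since no hSRY-OFF array detected it. Among probes detected in both groups, 12 of 73 members rose (16.4%), against 15.1% of all. Falls were rarer than in the background: 1 probe fell (1.35%), where 17.3% of all tested probes fell. The 3 hSRY-ON values lay above the 3 hSRY-OFF values without overlap for 31 members (41.9%), against 25.4% of all tested probes, and below them for 4 (5.41%), against 24.6%. The other 39 members overlapped between the groups. In bulk tissue, fewer cells of a type and less RNA per cell cannot be told apart.

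**Figure D1:**
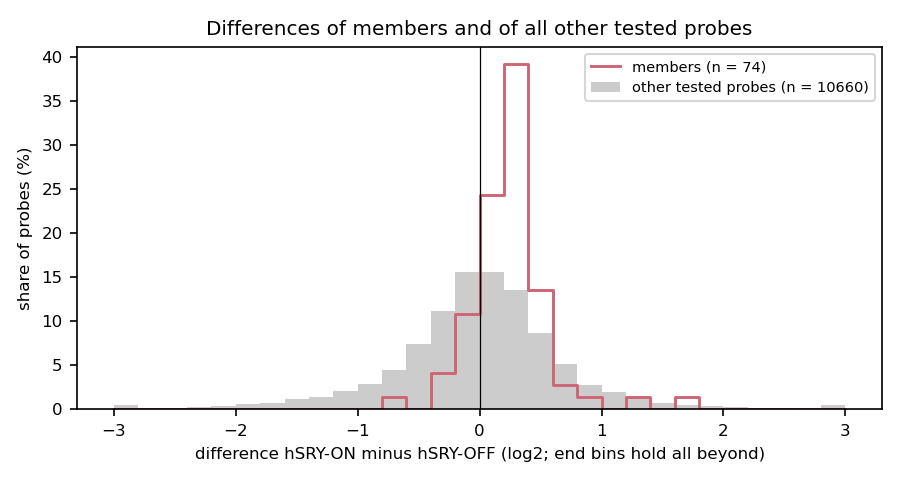
Histogram of the log2 difference, hSRY-ON minus hSRY-OFF, in bins for the 74 tested member probes (red line) and the 10660 other tested probes (grey), as a share of each set in percent. The members crowd into the bins just above 0 and range from -0.67 to 1.74. A set of 74 probes is likely to span less than one of 10660, so the ranges are not compared.

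The number of members past the threshold depended on single arrays. It fell from 13 to 4 (5.41%) without hSRY-OFF replicate 1, hSRY-OFF replicate 2 or hSRY-ON replicate 1. In those fits 8.32%, 9.08% and 10.9% of all tested probes rose. It fell to 7 (9.46%) without hSRY-OFF replicate 3, against 12.0% of all tested probes. With 3 arrays a group the smallest difference that was called among members was 0.40, or 1.32-fold. Scaling each array by its median in place of quantile normalization gave 4 members higher and 1 lower, with a median difference of 0.10 where all tested probes had -0.04, and 54 of 74 members positive. Trimmed-mean scaling without background correction gave 9 higher, 2 lower and a median of 0.12. The share of members that rose was 5.41% with median scaling, against 11.2% of all tested probes. With trimmed-mean scaling it was 12.2% against 12.3%. Under median scaling *Cox6b2*, *Cox7a2l*, *Cox6c* and *Atp5s* kept their calls, as did *Cox6a2*, which entered the test only through the hSRY-ON arrays. The share of members that rose thus lay below or above that of all tested probes, depending on the setting. It lay above in the settings that follow. Without background correction 25 members rose (33.8%), against 16.8% of all tested probes, and normexp with an offset of 50 gave 20 (27.0%) against 16.8%. An intensity trend with robust variance gave 23 (31.1%) against 16.9%, and array weights gave 27 (36.5%) against 22.2%.

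Array by array, the shift in the median over all members was present in each hSRY-ON liver but was larger in replicate 1. Relative to the hSRY-OFF mean, the median of the 74 members was 0.36, 0.16 and 0.17 on the hSRY-ON arrays and 0.04, -0.05 and 0.00 on the hSRY-OFF arrays. The hSRY-ON medians therefore lay above all 3 hSRY-OFF medians. Members above the hSRY-OFF mean numbered 65, 52 and 60 on the hSRY-ON arrays and 52, 19 and 36 on the hSRY-OFF arrays. On this count hSRY-ON replicate 2 did not differ from hSRY-OFF replicate 1. In complex II, with 3 probes, the median of hSRY-OFF replicate 1 (0.18) lay above that of hSRY-ON replicate 3 (0.13). For all tested probes the array medians stayed between -0.01 and 0.03. Members are mostly bright probes, with 52 of the 74 in the brightest 25% of the tested probes. Among the 1027 other probes of the brightest 10%, the median difference was 0.02, 51.9% were positive, 18.6% rose and 21.3% fell.

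**Figure D2:**
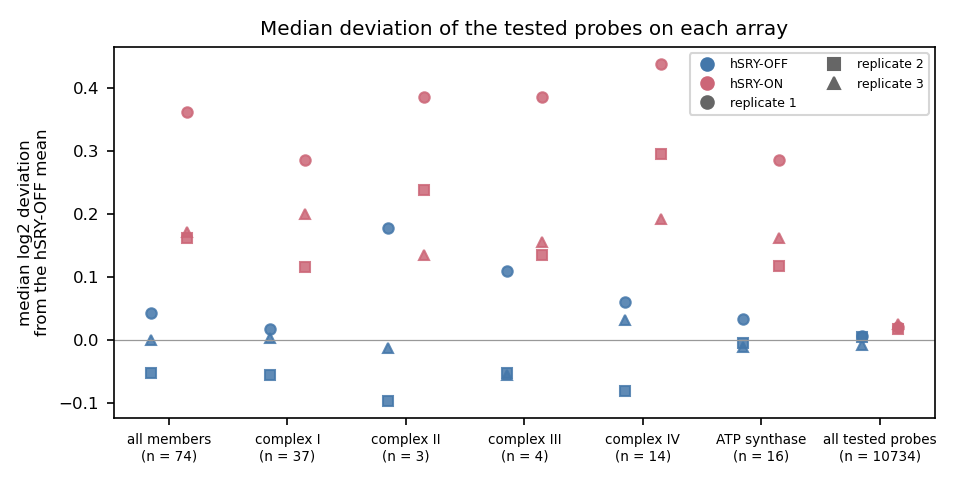
Median log2 deviation from the hSRY-OFF mean on each array, for all tested members, for each complex and for all tested probes (n = number of probes). Colours give the group and marker shapes the replicate. For all members the 3 hSRY-ON arrays sit at 0.16 to 0.36 and the hSRY-OFF arrays at -0.05 to 0.04.

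Complex I is the NADH dehydrogenase, in which a core shared with bacteria carries the flavin, the iron-sulfur clusters and the proton pump and a ring of accessory subunits surrounds it. Of 37 tested probes named as complex I subunits 5 rose (13.5%) and none fell (0 probes). Of all tested probes 15.8% rose and 17.3% fell. The median difference in complex I was 0.21 with 30 of 37 positive. The nuclear-encoded core had 3 of 7 probes higher (42.9%) with a median of 0.38. The accessory subunits had 2 of 29 higher (6.90%) with a median of 0.12. The difference between core and accessory subunits was not tested. *Ndufa4*, which keeps a complex I name but is now placed with complex IV, had a difference of 0.36 (adjusted p = 0.0648).

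*Ndufs7* carries the last iron-sulfur cluster before ubiquinone. It measured 11.66, 11.64 and 11.75 in hSRY-OFF and 12.47, 12.06 and 12.33 in hSRY-ON livers. All hSRY-ON values lay above all hSRY-OFF values, a rise of 0.60 ± 0.14 (SE), or 1.52-fold, with an adjusted p of 0.0157. *Ndufv1*, the subunit that binds NADH and flavin, measured 12.54, 12.36 and 12.55 in hSRY-OFF and 13.19, 13.16 and 12.88 in hSRY-ON livers. The groups again did not overlap, and it rose by 0.60 ± 0.14, or 1.51-fold (adjusted p = 0.0145). The core subunits *Ndufv2*, *Ndufs3* and *Ndufs8* did not pass the test. *Ndufv2* gave 0.38 (adjusted p = 0.0639), *Ndufs3* gave 0.29 (0.101) and *Ndufs8* gave -0.21 (0.230), the last with all hSRY-ON values below all hSRY-OFF values.

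Among the accessory subunits, *Ndufc1* and *Ndufa3* rose. *Ndufc1* measured 10.97, 11.10 and 11.04 in hSRY-OFF and 11.57, 11.28 and 11.73 in hSRY-ON livers on the probe that rose. Its lowest hSRY-ON value, of replicate 2, lay closest to the hSRY-OFF range, and the rise was 0.49 ± 0.15 (adjusted p = 0.0383), against 0.21 ± 0.13 on the other *Ndufc1* probe (adjusted p = 0.241). *Ndufa3* measured 12.84, 12.74 and 12.79 against 13.39, 13.19 and 13.11. Its groups were separate, with a rise of 0.44 ± 0.12 (adjusted p = 0.0311). The lowest difference in complex I was that of *Ndufb7*, at -0.21 (adjusted p = 0.255). Probes of *Ndufs4*, from -0.02 to 0.11 over 4 probes, and of *Ndufa8*, at 0.01 and -0.05, differed in sign with none past the threshold (0 probes). Leaving out 1 array at a time ended the calls of *Ndufa3* and *Ndufc1* in 5 of 6 cases each (adjusted p up to 0.126). The exceptions were hSRY-ON replicate 3 for *Ndufa3* and hSRY-ON replicate 2 for *Ndufc1*. The call of *Ndufs7* was lost without hSRY-OFF replicate 1 or 2 (adjusted p up to 0.0623) and that of *Ndufv1* without hSRY-OFF replicate 2 or hSRY-ON replicate 1 (up to 0.0601).

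Complex II, the succinate dehydrogenase of the tricarboxylic acid cycle, had 3 tested probes. *Sdhb*, its iron-sulfur subunit, measured 9.99, 9.86 and 9.99 in hSRY-OFF and 10.44, 10.24 and 10.44 in hSRY-ON livers. The groups did not overlap and the probe rose by 0.43 ± 0.12, or 1.35-fold (adjusted p = 0.0310), but the call was lost without hSRY-ON replicate 1 or without any of the 3 hSRY-OFF arrays (adjusted p up to 0.111). The second *Sdhb* probe gave 0.15 ± 0.15 (adjusted p = 0.469), and another was undetected. *Sdhc*, a membrane anchor, gave 0.25 ± 0.14 (adjusted p = 0.195). Complex III, the cytochrome bc1 complex, had 4 tested probes and none past the threshold (0 probes, and 1 with an unadjusted p under 0.05). *Uqcrh*, the hinge protein, gave 0.30, the core protein *Uqcrc1* gave 0.27 and *Uqcr* gave 0.22, each without overlap between the groups. The second core protein, *Uqcrc2*, gave 0.02 with a 95% interval from -0.27 to 0.31.

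Complex IV, cytochrome c oxidase, held the largest rise of the family, that of *Cox6b2*. Of 14 tested probes 5 rose (35.7%) and none fell (0 probes), or 4 of 13 (30.8%) with *Cox6a2* left out. Of all tested probes 15.8% rose, or 15.1% of those detected in both groups. The median difference in complex IV was 0.29, and 13 of 14 were positive. *Cox6b2*, a subunit isoform best known from testis, measured 7.77, 7.17 and 8.19 in hSRY-OFF livers. In hSRY-ON livers it measured 9.59, 9.32 and 9.43, all above the hSRY-OFF range, which was itself wide. The rise was 1.74 ± 0.25, or 3.33-fold (adjusted p = 0.00253), and the probe was detected on all 6 arrays. A second *Cox6b2* probe was detected on no array, so the rise rests on 1 probe. *Cox6a2*, the isoform of heart and skeletal muscle, was detected on 0 of 3 hSRY-OFF and on 3 of 3 hSRY-ON arrays. It measured 5.26, 5.24 and 4.65 against 6.81, 5.97 and 6.02, close to background on every array. Set against the lowest detectable signal of the hSRY-OFF arrays, the hSRY-ON level was at least 1.44-fold higher. The adjusted p of 0.0135 belongs to the fit on the values as measured, undetected in hSRY-OFF, and not to this ratio. It is therefore no support for a rise. The probe passed the filter on dim signals through the hSRY-ON group alone, so its place among the rises is in part set by that filter. The call of *Cox6b2* held without any single array. Among striated muscle markers *Acta1*, *Ckm*, *Myh1*, *Myh4* and *Tnnt3* were undetected on all arrays, and *Mylpf* gave 0.46 (adjusted p = 0.161).

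Among the restricted forms on the array only *Cox6b2* was detected in both groups, so only its partner can be compared in size. That partner, *Cox6b1*, had smaller differences, which were not tested against that of *Cox6b2*. *Cox6b1* gave 0.27 and 0.21 on its 2 probes and *Cox6a1* gave 0.30 and 0.24, none of them past the threshold (adjusted p from 0.102 to 0.244). *Cox4i1*, the common form of subunit IV, measured 13.49, 13.29 and 13.56 in hSRY-OFF and 14.15, 14.01 and 13.80 in hSRY-ON livers. It rose by 0.54 ± 0.14, or 1.46-fold (adjusted p = 0.0236), without overlap, though not without hSRY-OFF replicate 1 or 2 or hSRY-ON replicate 1 or 2 (adjusted p up to 0.0857). *Cox4i2*, the form known from lung and from low oxygen, passed detection on 2 hSRY-ON arrays and 0 hSRY-OFF arrays, too few for a test. Its values of 4.59, 4.88 and 5.17 against 5.86, 5.24 and 5.95 did not overlap but lay near background, so no fold is given. *Cox7b2*, *Cox8b* and *Cox8c*, the other restricted forms on the array, were detected on 0 arrays.

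**Figure D3:**
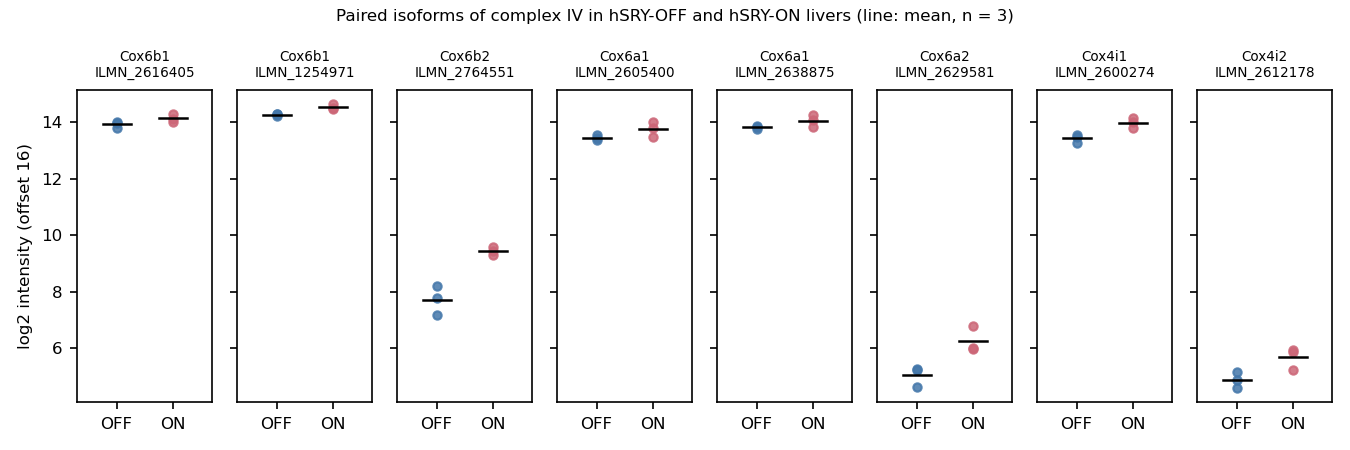
Log2 intensity on each array (points, with a line at the mean of 3) for the subunit VIb, VIa and IV isoforms of complex IV, 1 panel per probe, hSRY-OFF in blue and hSRY-ON in red. *Cox6b2* moves from a mean of 7.71 to 9.45 while the *Cox6b1* panels shift by 0.27 or less. Panels share an axis, but a probe's height is not a measure of its RNA relative to another probe's.

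The remaining rises in complex IV were *Cox6c* and *Cox7a2l*. *Cox6c*, a small nuclear-encoded subunit, measured 9.80, 9.70 and 9.83 in hSRY-OFF and 10.64, 10.45 and 10.28 in hSRY-ON livers. It rose by 0.68 ± 0.13, or 1.60-fold (adjusted p = 0.00828), without overlap and with any single array left out. *Cox7a2l* is no subunit of the enzyme alone but joins complexes III and IV into supercomplexes. It measured 10.72, 11.03 and 11.13 against 11.96, 11.99 and 11.46. All hSRY-ON values were higher and the rise was 0.84 ± 0.19, or 1.79-fold (adjusted p = 0.0140), a call lost without hSRY-OFF replicate 1 or hSRY-ON replicate 1 (adjusted p up to 0.0581). *Cox4nb*, which matches the name rule but is now called *Emc8* and belongs to a complex of the endoplasmic reticulum, gave 0.04 and -0.02.

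The ATP synthase held members on both sides of 0. Of 16 tested probes 2 rose (12.5%) and 1 fell (6.25%), where 15.8% and 17.3% of all tested probes did. The median difference of the 16 was 0.19, and 12 were positive. In F1, *Atp5c1*, the rotating gamma subunit, measured 13.62, 13.48 and 13.43 in hSRY-OFF and 14.01, 13.79 and 13.92 in hSRY-ON livers. The groups were separate and it rose by 0.40 ± 0.12, or 1.32-fold (adjusted p = 0.0421). The catalytic beta subunit *Atp5b* gave 0.06, with a 95% interval from -0.20 to 0.32, alpha (*Atp5a1*) gave 0.35, delta (*Atp5d*) 0.35 and epsilon (*Atp5e*) -0.06, none past the threshold. In Fo and the stalks, *Atp5l*, subunit g, measured 12.71, 12.63 and 12.56 against 13.09, 13.03 and 12.97 and rose by 0.40 ± 0.11 (adjusted p = 0.0321). The calls of *Atp5c1* and *Atp5l* were each lost in 5 of 6 cases with 1 array left out, all but hSRY-ON replicate 2 and hSRY-ON replicate 3 respectively (adjusted p up to 0.121).

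Other stalk and ring subunits did not pass the test. *Atp5h*, subunit d of the stalk, gave 0.41 (adjusted p = 0.0654). *Atp5g2* and *Atp5g3*, 2 of the genes for the same proton-carrying ring subunit, gave 0.07 and 0.06, with 95% intervals from -0.19 to 0.34 and from -0.21 to 0.33. Scaling by array medians, or by trimmed means without background correction, turned the sign of *Atp5g2*. *Atp5j*, coupling factor 6, gave -0.26 and -0.15 on its tested probes, the first without overlap (adjusted p = 0.174).

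The single fall was *Atp5s*, once named as a factor of the ATP synthase and now listed as *Dmac2l*. It measured 8.74, 8.74 and 8.79 in hSRY-OFF and 8.15, 8.06 and 8.05 in hSRY-ON livers. These were narrow and separate groups, and it fell by 0.67 on the log2 scale (SE 0.11), to 0.627 of the hSRY-OFF level (adjusted p = 0.00391), with any single array left out. *Atp5sl*, now *Dmac2*, gave 0.45 (adjusted p = 0.0643). With the names that are not subunits left out (*Cox4nb*, *Cox7a2l*, *Atp5s* and *Atp5sl*), 12 of 69 subunit probes rose and 0 fell. The share that rose was 17.4%, against 15.8% of all tested probes. Of those 69, 25 (36.2%) had an unadjusted p under 0.05, against 45.3% of all tested probes, and the median difference was 0.24.

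**Figure D4:**
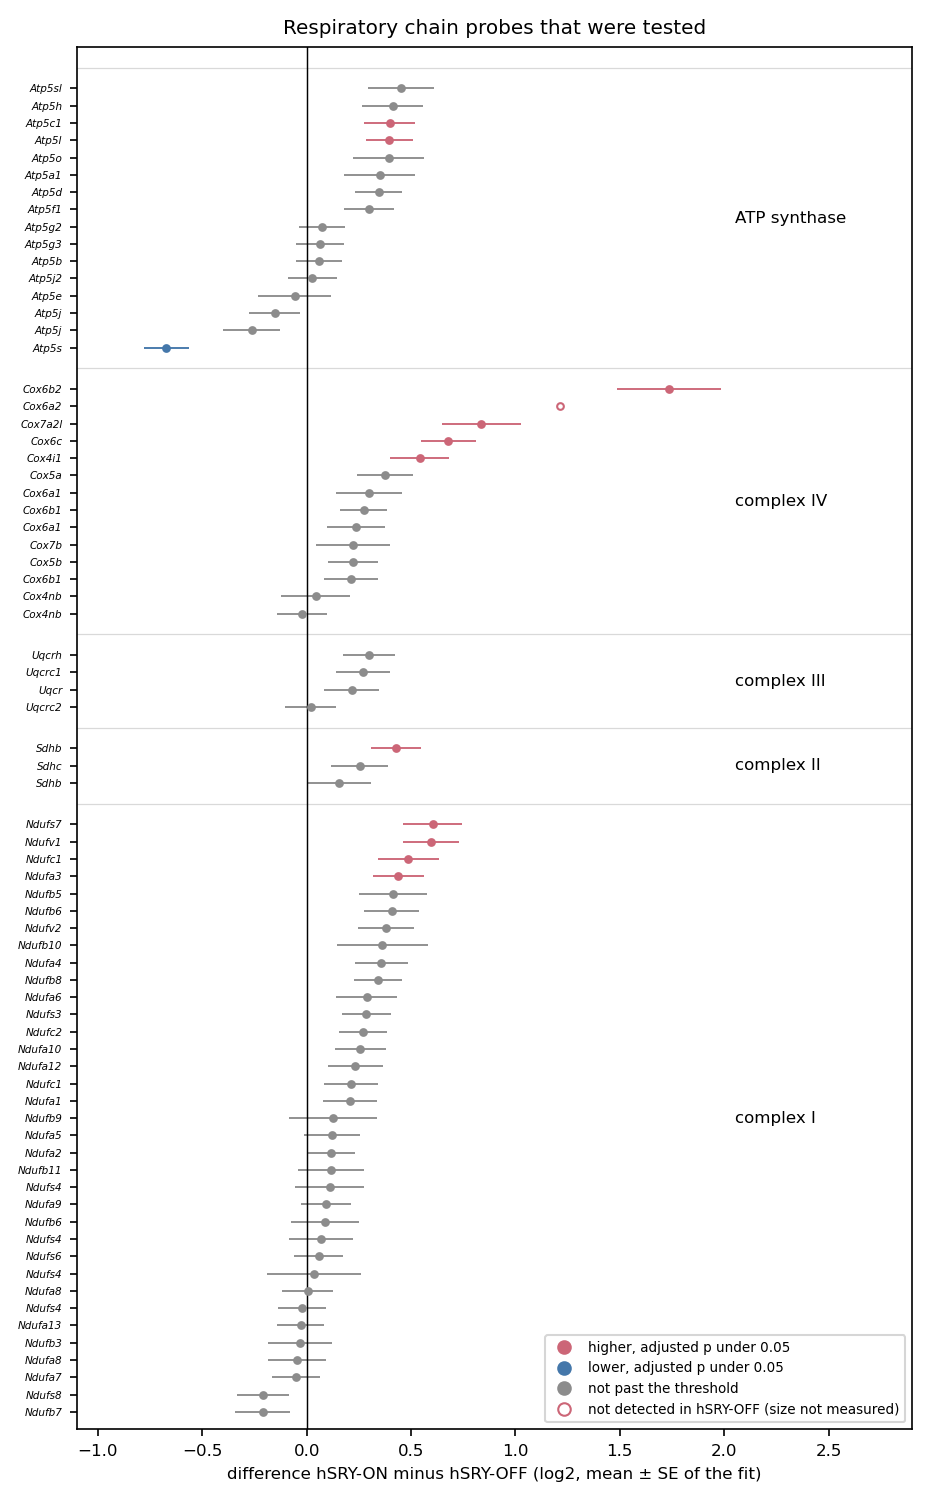
Log2 difference, hSRY-ON minus hSRY-OFF, for 72 of the 74 tested member probes, grouped by complex and ordered within it (points, with bars for the SE of the fit). Red marks rises and blue the fall past an adjusted p of 0.05. The open point is *Cox6a2*, undetected in hSRY-OFF, whose size was not measured. Most points lie to the right of 0 and the complex IV isoform *Cox6b2* lies farthest out, at 1.74.

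**Figure D5:**
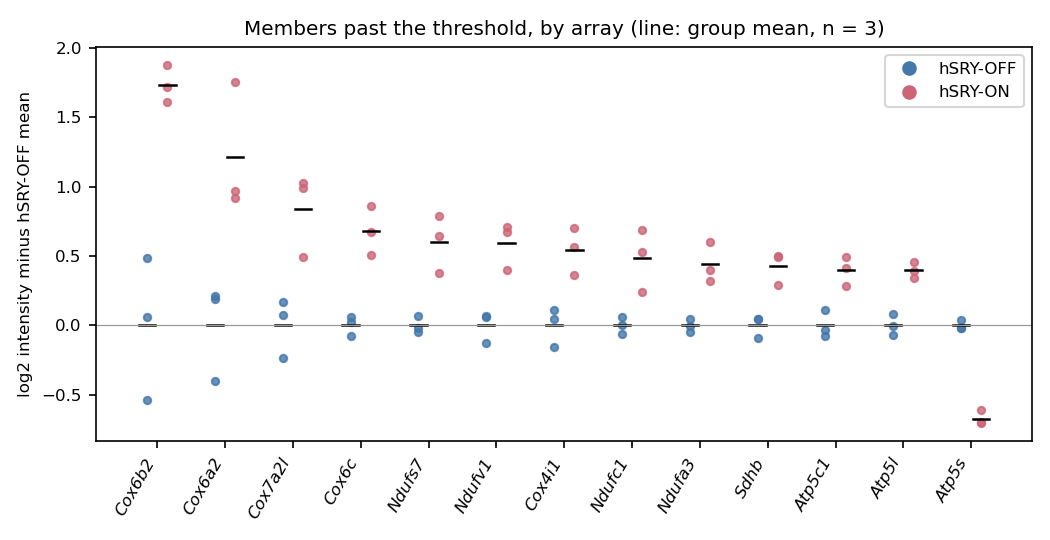
Log2 intensity minus the hSRY-OFF mean on each array for 13 of the 14 member probes past the threshold, hSRY-OFF in blue and hSRY-ON in red, with lines at the group means of 3 arrays. No plotted probe overlaps between the groups, and the largest spread in hSRY-OFF is that of *Cox6b2*. The hSRY-OFF values of *Cox6a2* were not above detection.

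A further 18 probes had hSRY-ON values above all hSRY-OFF values without passing the test, with differences from 0.12 to 0.45 and adjusted p from 0.0515 to 0.439. They belong to the 31 of 74 tested members without overlap in this direction. Such separation was common, at 25.4% of all tested probes. The median SE of a tested member was 0.13, and the hSRY-ON livers varied more than the hSRY-OFF livers, with median SDs of 0.15 and 0.09. Where a gene had several tested probes, 7 of 10 genes had probes of the same sign and 3 (*Ndufs4*, *Ndufa8* and *Cox4nb*) did not.

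Genes that work beside the subunits were read from lists. Among all tested probes, 15.8% rose and 17.3% fell. Of 11 tested probes of further subunits and carriers, 2 rose (18.2%) and 0 fell, with 5 negative and a median of 0.14. They were *Slc25a3*, the mitochondrial phosphate carrier, at 0.96 ± 0.15 on 1 probe (adjusted p = 0.00328) and 0.48 on the other (adjusted p = 0.0691), and *Cyc1*, cytochrome c1 of complex III, at 0.53 ± 0.14 (adjusted p = 0.0259). *Cyc1* lost its call in 5 of 17 alternative settings. The 5 negative probes, named after their values were seen, were those of *Etfa* and *Etfb*, the flavoprotein that passes electrons from fatty acid oxidation towards ubiquinone. On 4 of them all hSRY-ON values lay below all hSRY-OFF values, at -0.43 and -0.33 for *Etfa* and -0.34 and -0.31 for *Etfb* (adjusted p from 0.0513 to 0.0744). *Atpif1*, the inhibitor of the ATP synthase, gave 0.41 (adjusted p = 0.0906), and the probes of cytochrome c, *Cycs*, were not tested. Assembly factors moved in both directions, with 6 of 40 tested probes higher, 4 lower and a median of -0.05. The complex I factor *Ndufaf4*, listed under an older name, rose from 10.36, 10.01 and 10.01 to 11.72, 11.52 and 11.77, by 1.55 ± 0.15 (adjusted p = 0.000492). *Surf1*, needed to build complex IV, fell by 0.71 (adjusted p = 0.0081), and *Acad9*, which serves complex I, fell by 0.73 (adjusted p = 0.0148), a call lost in 3 of 17 alternative settings.

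The list of nuclear regulators of mitochondrial genes had 3 of 17 tested probes higher (17.6%) and 0 lower, with a median of 0.06. That share was near the 15.8% of all tested probes that rose. Those 3 were the coactivators *Ppargc1a* and *Ppargc1b* and the receptor they act on, *Esrra*. *Esrra* measured 9.28, 9.14 and 9.05 in hSRY-OFF and 10.44, 10.28 and 10.02 in hSRY-ON livers, a rise of 1.09 ± 0.15 without overlap (adjusted p = 0.00198). *Ppargc1b* measured 7.40, 6.79 and 6.83 against 8.94, 9.20 and 7.91 and rose by 1.68 ± 0.34 (adjusted p = 0.00972). *Ppargc1a* was the most variable of the 3, at 6.21, 6.60 and 7.29 against 8.12, 9.62 and 7.47, and its hSRY-ON replicate 3 lay only just above the highest hSRY-OFF array. Its rise of 1.71 ± 0.53 (adjusted p = 0.0449) was lost in 10 of 17 alternative settings, with adjusted p from 0.00861 to 0.142. *Nrf1* gave 0.28 (adjusted p = 0.283). *Tfam*, which maintains and transcribes mitochondrial DNA, gave -0.33 and -0.32 on its probes (adjusted p = 0.174 and 0.197).

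Of 22 tested probes of the tricarboxylic acid cycle and pyruvate entry, 10 rose (45.5%) and 1 fell (4.55%), with a median of 0.50. For all tested probes these shares were 15.8% and 17.3%. *Pdhb*, of pyruvate dehydrogenase, rose by 0.65 ± 0.11 (adjusted p = 0.00534). The fall was that of *Pcx*, pyruvate carboxylase, by 0.91 (adjusted p = 0.00369). Also among the risers, and named after their values were seen, were the kinases *Pdk4* (2.36), *Pdk1* (1.12) and *Pdk2* (0.998), which restrain pyruvate dehydrogenase rather than feed the cycle. Of 14 tested probes of mitochondrial import and the outer membrane, 3 rose (21.4%) and 0 fell, with a median of 0.26. They were the channel *Vdac2* (0.99, adjusted p = 0.00131), the translocase subunit *Timm17a* (0.78, 0.00363) and the chaperone *Hspa9* (0.51, 0.0171), the last with its call lost in 5 of 17 alternative settings and with 0.32 on its other probe (adjusted p = 0.109).

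Markers of several cell types also moved between the groups. For all tested probes the shares were 15.8% higher and 17.3% lower. For hepatocytes 0 of 8 tested probes rose and 4 (50%) fell (*Alb*, *Ttr* and both probes of *Serpina1a*). Of the 8, 6 were negative and 2 positive, the latter those of *Cps1* at 0.49 and 0.45 (adjusted p = 0.123 and 0.127). The *Alb* probe read only 202 to 448 before normalization. Summed intensities of the hepatocyte markers were 117465 to 126429 in hSRY-OFF and 109670 to 125573 in hSRY-ON livers. For erythroid cells, which the neonatal liver still makes, 1 of 9 rose (11.1%) and 0 fell. Of these 9, 8 were positive and 6 had an unadjusted p under 0.05. The median difference was 0.59, with sums of 72791 to 94883 and of 95032 to 111687. The *Hba-a1* probe was the brightest on each of the 6 arrays, which quantile normalization sets to 1 value, 15.50, so its difference of 0 is no measurement. The erythroid sums contain this constant, so their relative change is understated. For macrophages 1 of 12 rose (8.33%) and 4 fell (33.3%), with sums of 13677 to 17058 and of 10815 to 13455. For stellate cells 5 of 12 rose (41.7%) and 2 fell (16.7%), with sums of 14110 to 15926 and of 23039 to 24977. For endothelial cells 3 of 7 rose (42.9%) and 0 fell, with sums of 3079 to 3621 and of 3516 to 4388. For neutrophils and their precursors 0 of 10 changed, with 1 at an unadjusted p under 0.05, and the sums ran from 46119 to 53246 and from 30866 to 95233. Only 1 probe each of biliary and striated muscle markers was tested and neither passed the threshold, with sums over all striated muscle probes of 136 to 202 and of 193 to 231. Beside *Tat* and the muscle genes above, the markers *Epb42*, *Cd5l*, *Kdr*, *Krt19* and *Sox9* were undetected on all arrays. The part of these cell types in the members' values was not tested.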

How the data were processed

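Liver RNA of male FVB/N mice at postnatal day 6 was measured on Illumina MouseRef-8 bead arrays. The deposited table gives for each array the mean bead intensity of 25697 probes, which the authors had neither background-corrected nor normalized (lowest value 108). The deposited detection p-values rank each probe among the negative controls of its array. Scanner settings and genome build are not given in the sources used here. The study names TCC and the submitters' processing notes name limma. TCC is made for counts and was not applied to intensities.

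Background was removed with limma 3.58.1 in R 4.3.3 (function nec, offset 16), followed by quantile normalization and log2. The offset shrinks differences of dim probes. The test covered the 10734 probes (8225 symbols) that 3 or more of the 6 arrays detected at p under 0.01. hSRY-ON minus hSRY-OFF was fitted with lmFit and eBayes on all 6 arrays without covariates, two-sided, with Benjamini-Hochberg adjustment over all tested probes and a threshold of 0.05. For a probe undetected throughout a group, the other group's mean was set against a floor, which is the mean over the dim arrays of whichever was higher, the lowest detected signal or that of the probe, and the ratio is given as "at least". Probes of a gene were tested separately. Groups and replicate numbers came from the labels, and 0 columns were left without a sample. Nothing in the labels tells whether arrays of a group came from separate litters, so p-values measure the spread between these arrays.

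Symbols were matched to RefSeq genes of assembly GRCm38.p6 (14307 current, 2927 through an older name, 904 unmatched). Members and gene lists were chosen with earlier results of these data known, so lists are described by counts and medians with no test over a list. Named were all members past the threshold, the 2 largest rises and falls of each complex, all tested complex II subunits, duplicated or tissue-restricted isoforms, genes whose probes disagree in sign, and in each pathway list up to 3 genes past the threshold with the smallest p, with *Ppargc1a*, *Nrf1*, *Tfam*, *Cyc1*, *Cycs* and *Atpif1* in any case. Further complex III, complex I core and F1 subunits were named after their values were seen. Of the genes this rule names, 2 are not reported here. Alternatives varied background correction, normalization, filter, variance model, threshold, membership and arrays. Arrays of other organs were not analysed here.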

Additional observations from a re-analysis of the deposited data

How the results depend on the processing

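Precision is limited by having 3 arrays a group, and the count of members past the threshold was the least stable result. The 13 rises became 4 (5.41%) with median scaling and 9 (12.2%) with trimmed-mean scaling without background correction. In these settings 11.2% and 12.3% of all tested probes rose. The rises became 20 (27.0%) with normexp at offset 50 and no control information and 25 (33.8%) without background correction. They became 23 (31.1%) with an intensity trend and robust variance and 27 (36.5%) with array weights. In these 4 settings 16.8%, 16.8%, 16.9% and 22.2% of all tested probes rose. They became 2 (2.70%) at an adjusted p under 0.01 and 23 (31.1%) under 0.1, where 6.46% and 22.0% of all tested probes rose. With 1 array left out they became 4 to 15. The share of members that rose thus lay below that of all tested probes in some settings and above it in others. The 1 fall became 2 with trimmed-mean scaling without background correction, where *Ndufs8* also fell (-0.34, adjusted p = 0.0308), 2 with no filter on dim probes and 0 with the names that are no subunit left out, which drops *Atp5s*, and it stayed at 1 with any 1 array left out. The median difference of 0.23 became 0.10 with median scaling and 0.12 with trimmed-mean scaling without background correction, and 0.19 to 0.30 with 1 array left out. The cause of these changes was not tested, except that fewer arrays, another threshold and another membership differ by construction. Of the 14 members past the threshold, 5 kept their call with median scaling, 10 with trimmed-mean scaling without background correction, 5 to 12 with 1 array left out, and 12 to 14 under the other settings of background, filter and variance. The labels number the replicates 1 to 3 in both groups. With group means removed, same-numbered arrays correlated weakly (r = 0.02, 0.10 and 0.05 across tested probes). Pairs with different numbers ran from -0.17 to 0.13, and not every array correlated best with its own number. With 3 arrays a group this cannot decide whether same-numbered arrays belong together, and the labels do not say. With the replicate number as a block, 7 members rose (9.46%), against 14.6% of all tested probes, and 8 of the 14 kept their call.

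Of the named probes, 9 near 0 changed sign in 22 cases, none of which passed the threshold. *Atp5g2* gave -0.047 with median scaling and -0.0066 with trimmed-mean scaling without background correction. *Ndufa8* gave -0.13 and -0.090 under the same scalings on its first probe, which ranged from -0.040 to 0.069 with 1 array left out, and its second ranged from -0.13 to 0.047. With 1 array left out the *Cox4nb* probes ranged from -0.070 to 0.038 and from -0.088 to 0.13. Those of *Ndufs4* ranged from -0.068 to 0.021, from -0.020 to 0.19, from -0.17 to 0.28 and from -0.013 to 0.22, and with array weights the first of these gave 0.015 and the third -0.22. Over all named probes and settings, 811 results kept direction and side of the threshold, 84 lost the call and 17 gained it.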
